A study of Mus musculus with 96 samples.

Results

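The subunits of oxidative phosphorylation, with the assembly factors that carry the same name stems, were followed in single mouse cells on the path to blood stem cells. Genes were taken by symbol: those starting with Nduf, Sdh, Uqcr, Atp5, mt-Nd, mt-Co, mt-Cyb or mt-Atp, or with Cox and a digit from 4 to 8, without pseudogenes. This gave 105 of the 19836 genes in the count table, 93 encoded in the nucleus and 12 in mitochondrial DNA. Of these, 102 had at least 30 reads summed over all cells and entered the comparisons. Ndufa4l2, mt-Atp8 and mt-Nd4l fell under that minimum. Cytochrome b, the mitochondrially encoded subunit of complex III, is listed as mt-Cytb, which the stem mt-Cyb does not match, and is reported apart; Cyc1, the cytochrome c1 subunit of complex III, also lies outside the stems.

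The series held 96 cells of C57BL/6 mouse embryos, each sequenced alone with a full-length SMART-Seq chemistry and no molecular identifiers. The 48 AGM cells (aorta-gonad-mesonephros, E11.5) and the 16 yolk sac cells (E11.5) were sorted as pre-haematopoietic stem cells, both through the gate Ter119-CD11b-CD144+c-kit+EPCR+. The 16 fetal liver cells of E12.5 were sorted as stem cells by Ter119-Sca-1+c-kit+EPCR+, and the 16 fetal liver cells of E14.5 by Ter119-Sca-1+c-kit+CD48-CD150+. The AGM and yolk sac groups share age and gate and differ in tissue, and the liver groups share the tissue but differ in age and gate, whose parts cannot be told apart. Against the AGM, the liver groups differ in all of these. Since no animals or litters are named, a group was treated as 1 sample: levels are given with exact Poisson intervals that cover counting error only, no test was made, and the spread is that between cells.

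Mitochondria make most of a resting cell's ATP by passing electrons from NADH and succinate along complexes I to IV and using the resulting proton gradient to drive complex V, the ATP synthase. Complexes I, III, IV and V combine subunits encoded in the nucleus with a small core set encoded in mitochondrial DNA, whereas complex II is wholly nuclear and also acts in the citric acid cycle. Fetal stem cells cycle actively, and blood stem cells of the adult marrow are known for low mitochondrial respiration.

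Pooled reads per group were 60280645 for the AGM, 22306075 for the yolk sac, 19053123 for E12.5 liver and 20585452 for E14.5 liver, and single cells had 250235 to 1926882. No pair of cells had identical counts. Genes read per cell ran from 1011 to 11094, with medians of 5522.5 in the AGM, 5349.5 in the yolk sac, 4036 for E12.5 and 4839 for E14.5. The 7 haematopoietic markers fixed for the check were each read in at least 1 cell of every group. Their sum in the lowest cell was 0.87 CPM in the AGM, 1052 in the yolk sac, 3.996 for E12.5 and 808 for E14.5. Of the 7 endothelial markers of the check, 7, 7, 6 and 6 were read in these groups. For the 6 macrophage markers the counts were 6, 3, 6 and 4, and for the 4 hepatocyte markers with a row 3, 4, 3 and 0. Gfi1 was read in 4 of 16 yolk sac cells, and the hepatocyte marker Afp in 7 of them. Cdh5, which encodes the CD144 of the gate, was read in 45 of 48 cells from the AGM but in 7 (yolk sac), 3 (E12.5) and 1 (E14.5) of 16. Slamf1, which encodes the CD150 of the E14.5 gate, was read in 4 of those 16 cells, and Cd48, which that gate selects against, in 6 of them. Procr, which encodes the EPCR of the other gates, was read in 41 of 48 AGM, 6 of 16 yolk sac and 8 of 16 E12.5 cells. Kit, which encodes the c-kit of every gate, was read in 43 of 48 AGM cells. In the yolk sac, E12.5 and E14.5 groups it was read in 12, 12 and 14 of 16. Ly6a, which encodes the Sca-1 of the liver gates, was read in 12 of 16 cells at E12.5 and at E14.5. Globin reads exceeded 1% in E12.5 cell 8, which had the fewest genes and reads and the highest macrophage marker sum, and in E14.5 cells 3, 8, 13 and 16, at up to 23.1% of reads.

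The nuclear genes took between 3.31% and 3.77% of the pooled reads in each group. In single AGM cells the share had a lowest value of 2.47%, a median of 3.75% and a highest of 5.22%. The yolk sac cells gave 2.44%, 2.95% and 5.03% in the same order, E12.5 liver 2.58%, 3.52% and 6.54%, and E14.5 liver 1.92%, 3.30% and 4.57%. These ranges overlapped almost completely; the highest cell was E12.5 cell 8 and the lowest was E14.5 cell 16, both among the cells rich in globin reads. Without the 4 globin-rich cells the pooled E14.5 share was 3.51% in place of 3.32%. Across cells, Spearman's rho between the nuclear share and genes read was -0.37 (AGM), -0.52 (yolk sac), -0.42 (E12.5) and -0.06 (E14.5). The ratios that follow are log2 ratios of pooled read counts scaled to a common library total, as counts per 10 to the power 6 reads (CPM) with 1 CPM added, and the 3 ratios to the AGM share the same AGM cells.

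The 12 mitochondrial genes took a far smaller share, 0.411% of the pooled reads in the AGM, 0.401% in the yolk sac, 0.454% for E12.5 liver and 0.343% for E14.5 liver. Cell medians were 0.386%, 0.366%, 0.381% and 0.326%, and the highest single cells reached 1.57% in the AGM but 0.581% in E14.5 liver. With mt-Cytb added, the pooled shares were 0.640%, 0.671%, 0.648% and 0.491%. Per cell, nuclear reads outnumbered mitochondrial ones by a median of 9.06 times in the AGM, 9.85 in the yolk sac, 8.71 for E12.5 and 9.62 for E14.5, within a range of 1.86 to 21.4 over all cells. The nuclear and mitochondrial shares were only weakly related across the cells of a group, with Spearman's rho of 0.32 over the 48 AGM cells and -0.05, -0.12 and -0.25 over the 16 cells of the yolk sac, E12.5 and E14.5 groups; both shares come from 1 library per cell.

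**Figure D1:**
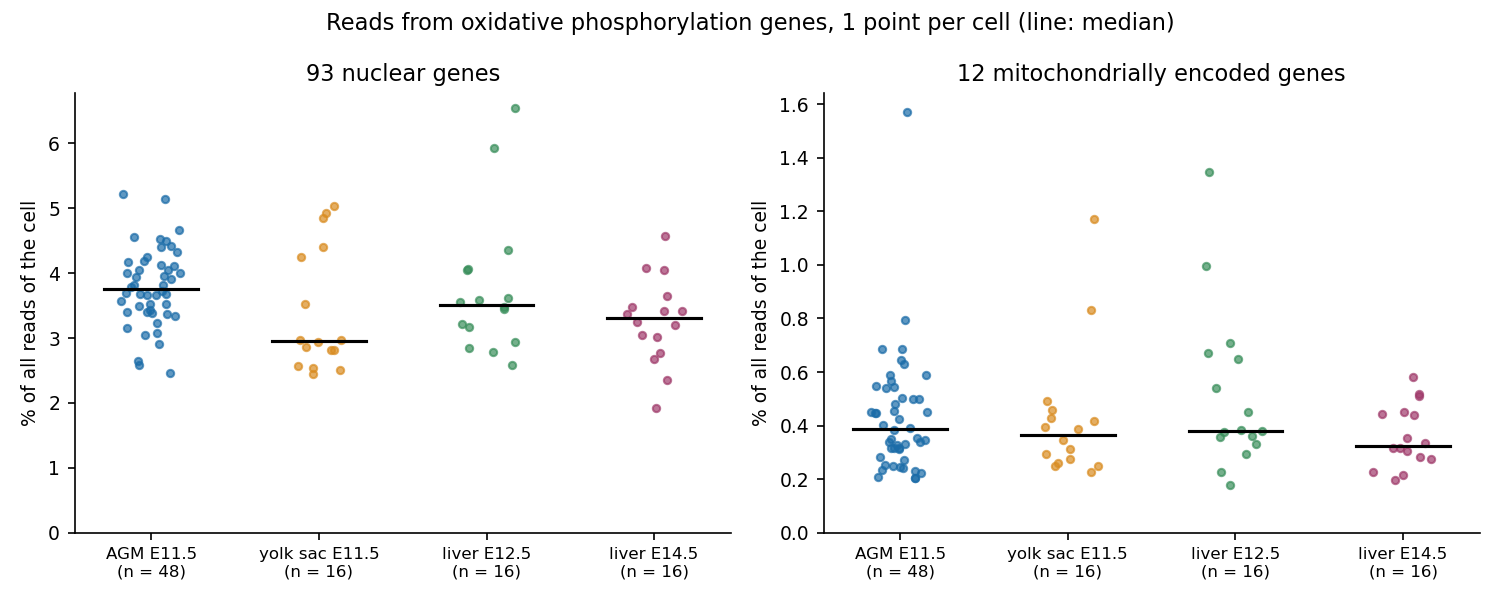
Percent of each cell's reads in the 93 nuclear genes (left) and the 12 mitochondrial genes (right), with 1 point per cell, by group; the lines are the group medians. The nuclear medians sit between 2.95% and 3.75% and the mitochondrial medians between 0.326% and 0.386%, with overlapping cells in all 4 groups.

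Among the mitochondrial genes, reads were concentrated on a few. In the AGM, per kilobase of gene, mt-Cytb stood at 1996 CPM, mt-Co1, the catalytic subunit of complex IV, at 1400, and mt-Nd1, a membrane subunit of complex I, at 952. The other complex I subunits followed, mt-Nd4 at 317, mt-Nd5 at 214.8, mt-Nd2 at 163.3 and mt-Nd6 at 74.0. In contrast, mt-Co2, which carries electrons from cytochrome c into complex IV, was at 0.534 CPM per kilobase, although it is cut from the same long transcript as mt-Co1. The total over the AGM cells was 0.365 CPM for mt-Co2, 0.664 for mt-Co3, 0.481 for mt-Atp6, 1.78 for mt-Nd3 and 0.0995 for mt-Atp8, and mt-Nd4l had 1 read over the 48 cells together.

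The genes near 0 were mostly those with an annotated nuclear copy. Of all 50-base words of the gene, 100% of those of mt-Co2 also occur in another annotated gene, as do 99.5% of those of mt-Atp6, 99.9% of mt-Co3, 98.8% of mt-Nd4l and 293 of the 299 of mt-Nd3. The share was 62.2% for mt-Nd4, 51.1% for mt-Co1, 8.2% for mt-Nd2, 7.6% for mt-Nd5 and 0 for mt-Nd1, mt-Nd6 and mt-Cytb. Short mt-Atp8, whose words occur in no other annotated gene, was near 0 as well. It starts between mt-Co2 and mt-Atp6 (chrM:7766-7969) and overlaps the latter. The annotated copies of both neighbours lie on chromosome 1, at chr1:24614885-24615565 and chr1:24613974-24614651. Only annotated transcripts were searched, so a copy of mt-Atp8 between them would not have been seen. Except for those of mt-Nd2 and mt-Nd5, which lie on chromosomes 2 and 13, the copies are unprocessed pseudogenes side by side on chromosome 1, and none of these chromosome 1 copies has a row in the count table. For mt-Co2 (chrM:7013-7696, GRCm38) and its copy Gm28661 (chr1:24614885-24615565), the 681 aligned bases differ at 0 positions. Their first 60 bases are shown because a read from either gene has the same letters, and no base is in capitals since none differs.

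mt-Co2: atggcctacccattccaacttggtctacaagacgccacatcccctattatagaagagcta
Gm28661: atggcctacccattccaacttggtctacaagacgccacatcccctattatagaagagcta

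How reads matching both places were counted is not given in the sources used here. The levels of mt-Co2, mt-Co3, mt-Atp6, mt-Nd3 and mt-Nd4l are therefore not read here as a measure of these transcripts, and those of mt-Co1 and mt-Nd4 may be too low. Whether the same holds for mt-Atp8 was not tested. The mitochondrial shares above include these genes. Whether and how far this lowers the shares was not tested.

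**Figure D2:**
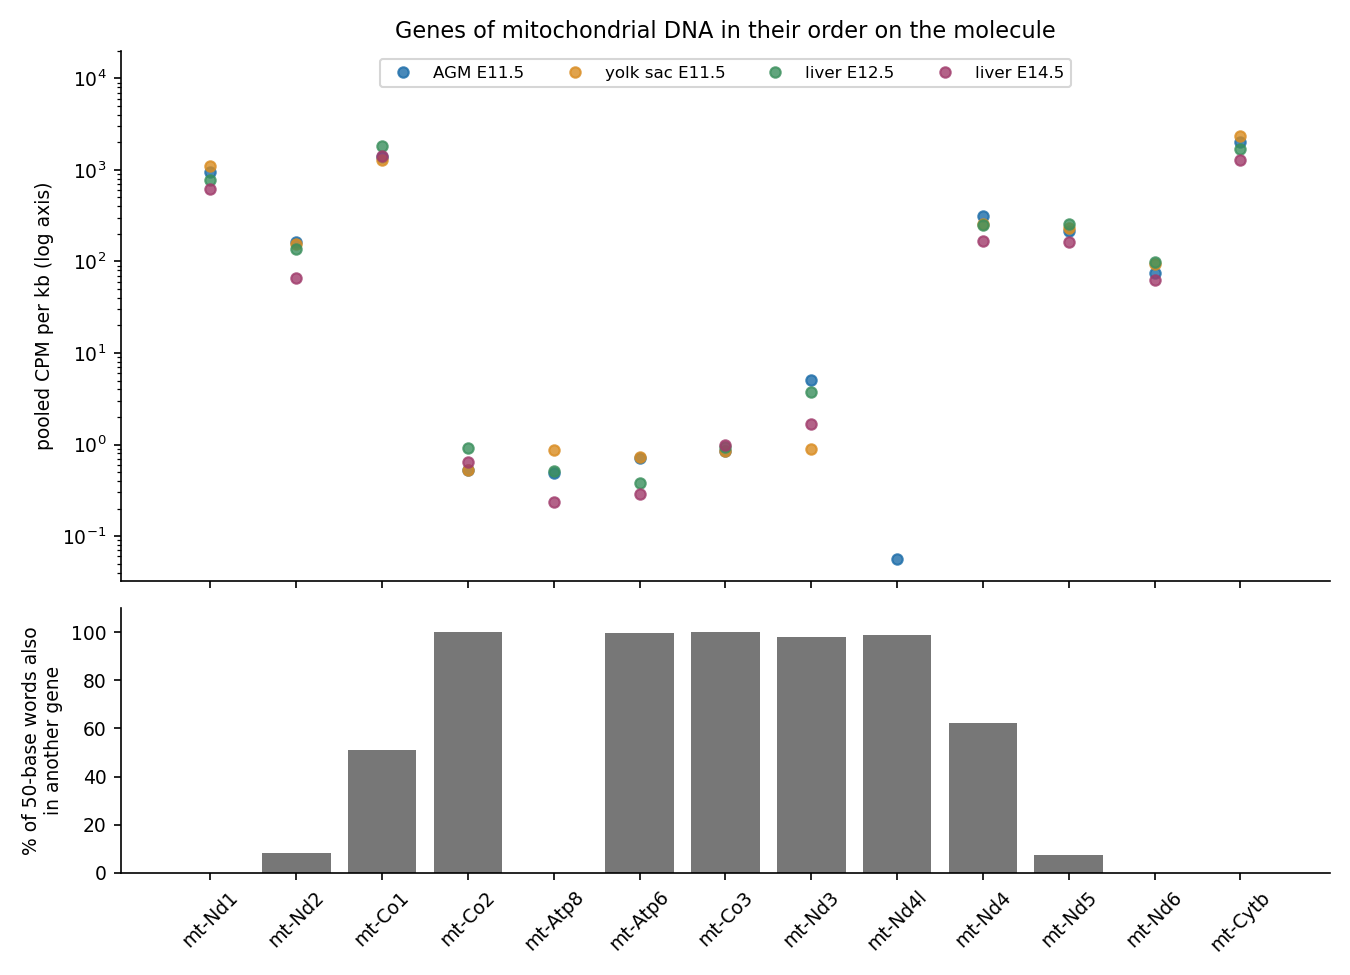
Pooled CPM per kilobase (log axis) of the 13 protein-coding genes of mitochondrial DNA in their order along it, with 1 colour per group, and bars for the percent of each gene's 50-base words found in another annotated gene. The 5 genes with nearly all words shared and mt-Atp8, with none shared, lie far under the other 7 in every group.

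For the 6 mitochondrial genes above 10 CPM, E14.5 liver had the lowest level of 5. For mt-Nd1 the AGM cells had a lowest value of 359, a median of 862 and a highest of 3591 CPM, and the yolk sac cells 346, 926 and 4116. The E12.5 cells gave 148.7, 533 and 3844 CPM, and the E14.5 cells 246, 566 and 1113. The groups overlapped, yet no E14.5 cell came near the highest cells of the other groups. The log2 ratio of E14.5 liver to the AGM was -0.63 for mt-Nd1, -0.91 for mt-Nd4, -0.41 for mt-Nd5 and -0.24 for mt-Nd6. The exception was mt-Co1, at 0.03, with pooled levels of 2163 CPM in the AGM, 1965 in the yolk sac, 2793 for E12.5 and 2213 for E14.5.

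Among the 102 genes, mt-Nd2, a proton-pumping subunit of complex I, had the lowest ratio of E14.5 liver to the AGM. Its cells gave a lowest value of 49.0, a median of 141.8 and a highest of 718 CPM in the AGM, and 15.98, 64.5 and 109 CPM at E14.5. The highest E14.5 cell thus lay under the AGM median. Pooled levels were 169.5 CPM in the AGM, 162.6 in the yolk sac, 141.4 for E12.5 and 67.9 for E14.5, and the log2 ratio to the AGM was -1.31. Against E12.5 it was -1.05, and -0.85 without E12.5 cell 7. Median ratios over the 10 mitochondrial genes were 0.00 for the yolk sac, -0.09 for E12.5 and -0.36 for E14.5 against the AGM, and -0.44 for E14.5 against E12.5. These 10 include mt-Co2, mt-Co3, mt-Atp6 and mt-Nd3; over the 6 genes above 10 CPM the medians were 0.03, -0.01, -0.52 and -0.61. Over all 15239 genes with at least 30 reads they were -0.20, -0.20, -0.23 and 0.00.

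Over the 92 nuclear genes, the median ratio to the AGM was -0.32 for the yolk sac, -0.05 for E12.5 and -0.24 for E14.5, and -0.19 for E14.5 against E12.5. Above 0 lay 27 of the 92 in the yolk sac, 36 in the E12.5, 24 in the E14.5 comparison with the AGM and 18 between the livers. Of all genes, 38.2%, 40.5%, 39.7% and 40.8% lay above 0. Since these are mostly abundant transcripts, they were also set beside the 2207 genes with at least 100 CPM, whose medians were 0.06, -0.02, -0.05 and -0.05, with 55.7%, 47.8%, 46.7% and 46.5% above 0. The nuclear median thus lay below that of abundant genes in the yolk sac and in E14.5 liver, and close to it in E12.5 liver against the AGM.

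Few of the 102 genes differed by more than 2-fold. There were 6 in the yolk sac against the AGM, 6 for E12.5, 2 for E14.5, and 8 for E14.5 against E12.5. Over all genes the share past 2-fold was 29.6%, 41.7%, 40.5% and 36.9%, and over genes with at least 100 CPM it was 4.89%, 10.1%, 10% and 7.97%. As shares of the 102, the counts in the yolk sac and between the livers were close to those of genes with at least 100 CPM. The counts of E12.5 and E14.5 against the AGM were lower than that. The yolk sac count was 2 without yolk sac cell 1 and 11 without yolk sac cell 14, and the E14.5 count against the AGM ran from 1 to 3 with single cells left out. The yolk sac genes were Atp5k, Cox6b2, Cox7c, Ndufa11, Ndufs5 and mt-Nd3, each lower than in the AGM. Of these, mt-Nd3 is one of the genes whose level is not read here as a measure of its transcript. Most genes past 2-fold in the liver comparisons were assembly factors, isoforms or Ndufs1, which were read in part of the cells, and not the abundant subunits.

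**Figure D3:**
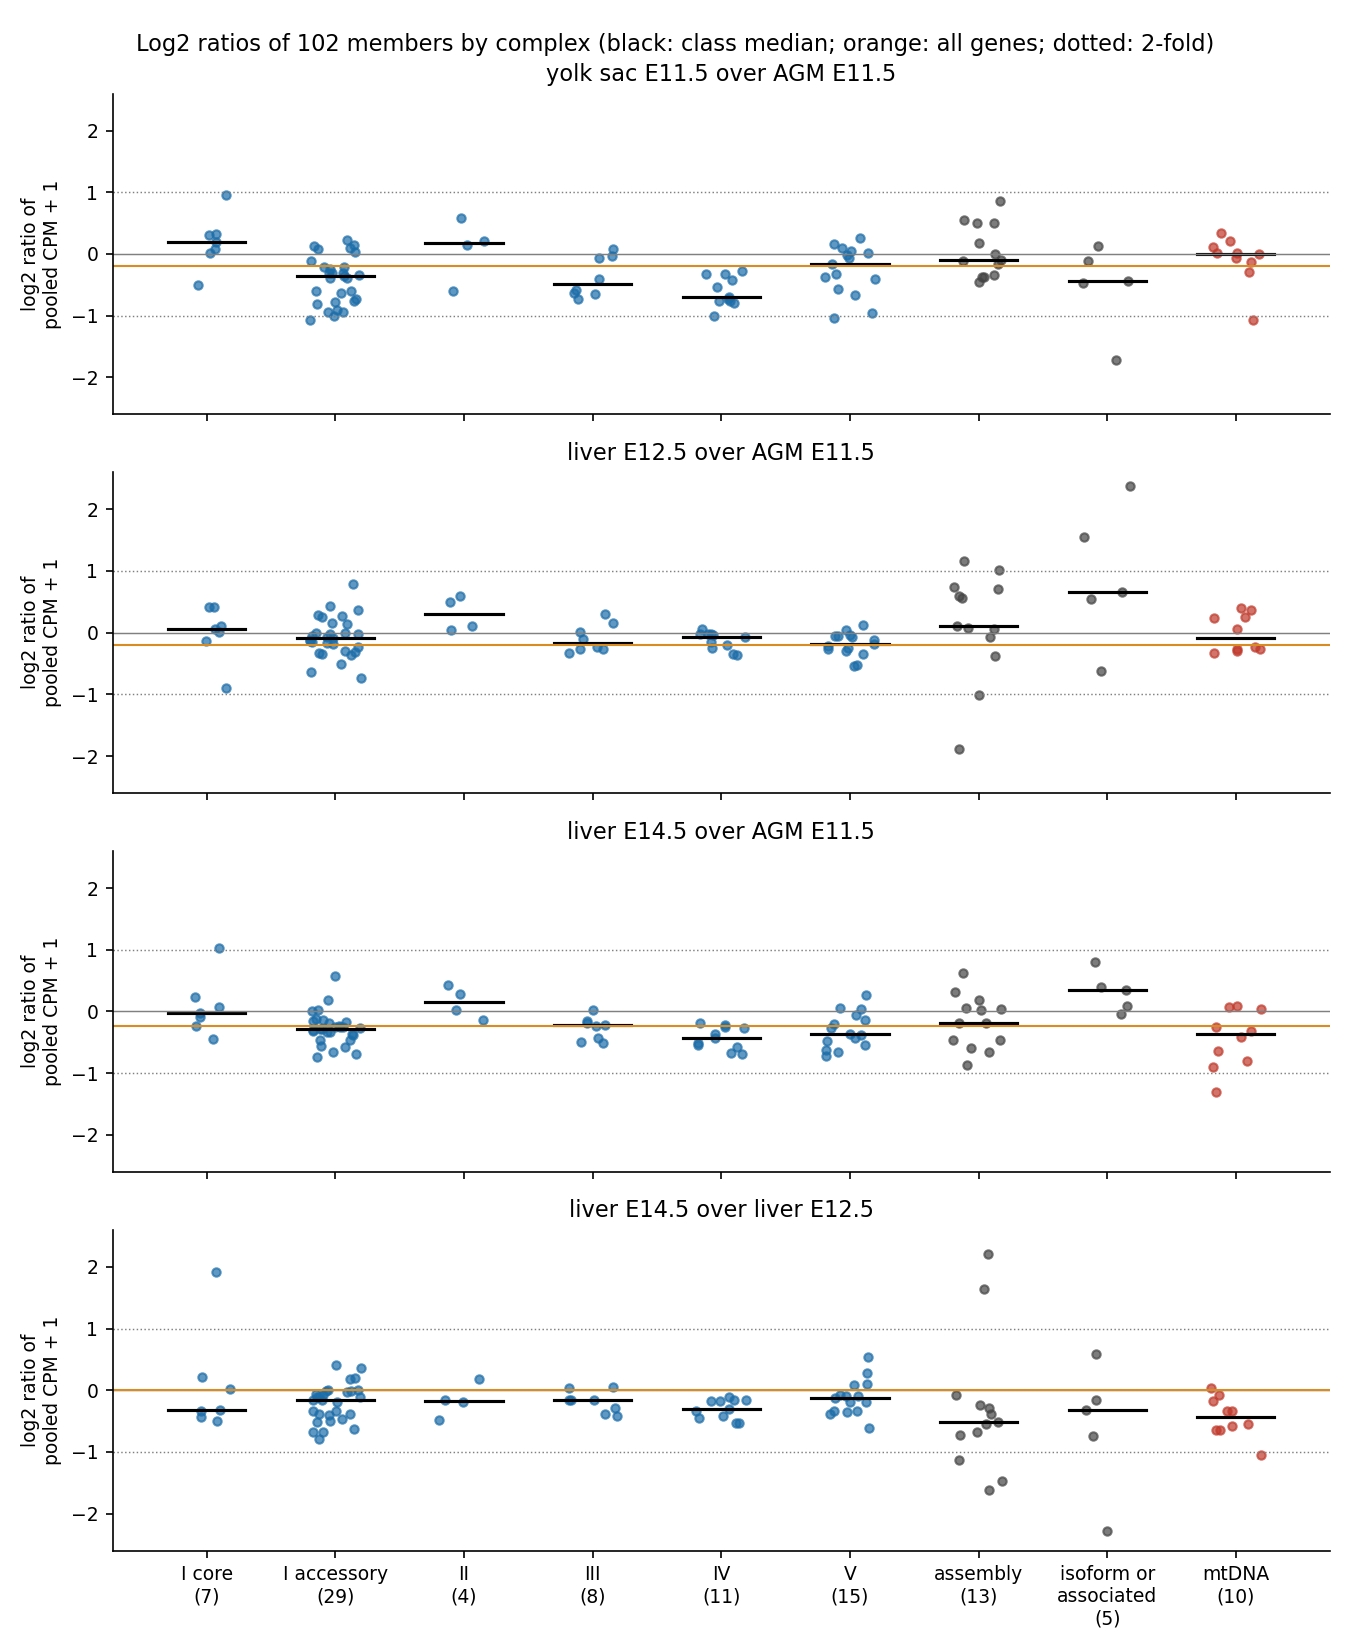
Log2 ratios of pooled CPM (1 CPM added) of the 102 genes in 4 comparisons, with 1 point per gene, sorted by class; black lines are class medians, orange lines the median of all 15239 genes, and dotted lines mark 2-fold. The 11 complex IV subunits all lie under 0 in the yolk sac comparison, and the points far from 0 in the liver comparisons are mainly assembly factors and isoforms.

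Complex I, which takes electrons from NADH, had 36 nuclear subunits with a median ratio of -0.31 in the yolk sac against the AGM, -0.05 for E12.5 and -0.25 for E14.5. The 7 nuclear core subunits, which hold the flavin and the iron-sulphur clusters, stood at 0.20, 0.05 and -0.03, with 6, 5 and 3 of 7 above 0. The 29 accessory subunits stood at -0.36, -0.08 and -0.28, with 6, 8 and 4 of 29 above 0. Transcripts of the core subunits ran from 983 (Ndufs7) to 2661 bases (Ndufs1), and most accessory ones were shorter than these. Length went with the yolk sac ratios, as given below. How much of the contrast between core and accessory subunits goes with length was not tested. The highest member per kilobase in the AGM was Ndufb8, an accessory membrane subunit, at 838 CPM in the AGM, 725 in the yolk sac, 681 for E12.5 and 678 for E14.5.

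Ndufs1, the large iron-sulphur subunit of the NADH-oxidising arm (chr1:63143596-63176833, minus strand, GRCm38), spread most among the core subunits. It had the lowest level per kilobase of the 7, 38.6 CPM in the AGM. AGM cells ran from 0 through a median of 62.7 to 456 CPM, yolk sac cells had a median of 149.9 and a highest of 731, E12.5 cells a median of 1.13 and a highest of 249.8, and E14.5 cells a median of 198.5 and a highest of 485. Reads were found in 35 of 48 cells from the AGM, and in 14 (yolk sac), 8 (E12.5) and 14 (E14.5) of 16. The E12.5 group thus had both fewer cells with reads and a lower highest cell. Pooled levels were 102.6 CPM (95% interval 100.1 to 105.2) in the AGM, 199.6 (193.8 to 205.6) in the yolk sac, 55.0 (51.7 to 58.4) for E12.5 and 211.4 (205.1 to 217.7) for E14.5. The ratios to the AGM were 0.95, -0.89 and 1.04, and E14.5 stood 1.92 above E12.5. Without E12.5 cell 3 the E12.5 ratio was -1.47 and the difference between the livers 2.51, and without E14.5 cell 15 the E14.5 ratio was 0.89.

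Of the accessory subunits, Ndufa11, a membrane subunit, was at 445 CPM in the AGM, 220 in the yolk sac, 269 for E12.5 and 266 for E14.5, with ratios of -1.01 (-0.96 without yolk sac cell 1), -0.73 and -0.74. Ndufs5 had a yolk sac ratio of -1.06, or -0.98 without the same cell (198.1 against 94.2 CPM). Ndufs6 was at 287 CPM in the AGM and 183.2 at E12.5 (-0.64), and Ndufa6 at 218.7 in the AGM and 135 at E14.5 (-0.69). In the other direction, Ndufa9, which binds NADPH at the base of the arm, was at 456 CPM in the AGM and 681 at E14.5 (0.58; 0.42 against E12.5). Ndufv3, a small subunit of the flavoprotein part, was at 134 CPM in the yolk sac, 167.1 at E14.5 and 291 at E12.5, a ratio of 0.80 to the AGM.

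Complex II, succinate dehydrogenase, was the only complex whose subunits had a median above 0 in each comparison with the AGM: 0.17 in the yolk sac, 0.30 for E12.5 and 0.15 for E14.5, with 3, 4 and 3 of 4 subunits above 0. These are 4 genes, and they did not move alike. The catalytic flavoprotein Sdha was at 303 CPM in the AGM, 455 in the yolk sac, 457 for E12.5 and 411 for E14.5, with ratios of 0.58 in the yolk sac and 0.44 at E14.5. The iron-sulphur subunit Sdhb was at 704, 773, 726 and 636 CPM. The membrane anchor Sdhc was at 151.1, 99.5, 213.4 and 153.2 CPM, and Sdhd at 641, 738, 691 and 780 CPM. Sdha was thus above the AGM in the other 3 groups, whereas Sdhc was lower in the yolk sac and higher at E12.5. The 4 transcripts are long for subunits, at 1142 (Sdhb) to 3171 bases (Sdhc). With the median of genes of like length taken off, as described below, Sdha, Sdhb, Sdhc and Sdhd had other ratios to the AGM. These were 0.54, -0.07, 0.49 and -0.01 at E12.5 and 0.25, -0.16, -0.04 and 0.27 at E14.5. No sign changed in the yolk sac. Without E14.5 cell 11 the E14.5 ratio of Sdhd was 0.05 in place of 0.28.

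Complex III passes electrons from ubiquinol to cytochrome c. Its 8 nuclear genes had median ratios of -0.49, -0.16 and -0.23 to the AGM, with 1, 3 and 1 above 0. By CPM not divided by length, its highest member was the core protein Uqcrc1, which differed little between the groups, at 1463, 1393, 1467 and 1321 CPM in the AGM, yolk sac, E12.5 and E14.5. The small subunit Uqcr10 was at 452, 271, 358 and 320 CPM. The complex as a whole held 0.435%, 0.354%, 0.414% and 0.366% of the pooled reads.

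Complex IV, cytochrome c oxidase, reduces oxygen to water, and its nuclear subunits had the lowest median of any complex in the yolk sac. There 0 of 11 lay above 0 against the AGM, with a median of -0.71. The medians were -0.07 at E12.5, with 1 of 11 above 0, and -0.43 at E14.5, with 0 of 11; E14.5 against E12.5 gave -0.30, with 0 of 11. The pooled share of reads was 0.697% in the AGM, 0.478% in the yolk sac, 0.643% for E12.5 and 0.535% for E14.5.

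Cox7c, a small membrane subunit, had a lowest value of 104, a median of 345 and a highest of 905 CPM over the AGM cells, and 34.3, 124 and 431 CPM over the yolk sac cells. The E12.5 cells gave 99.8, 208.6 and 3245 CPM and the E14.5 cells 68.1, 203.2 and 531. All ranges overlapped, and the yolk sac median lay just above the lowest AGM cell. The yolk sac ratio was -1.001, and -0.90 without yolk sac cell 1. Of the words of Cox7c, 53.0% are shared with other annotated genes, so part of its reads may be lost or misplaced. Cox6b1, which faces the intermembrane space, was at 868, 501, 759 and 671 CPM in the 4 groups, and Cox8a at 784, 480, 749 and 670. Cox7a2 was at 479, 287, 473 and 355 CPM, Cox6a1 at 765, 572, 756 and 525, and Ndufa4 at 608, 485, 601 and 533. Cox5a, which joins Cox4 on the matrix side, was at 412, 329, 348 and 255 CPM, with a ratio of -0.69 at E14.5. In each of these genes the yolk sac or the E14.5 level was the lowest.

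Cox4i1, the main form of the largest nuclear subunit, was the highest complex IV gene per kilobase. Its AGM cells had a lowest value of 553, a median of 1270 and a highest of 2782 CPM, and the yolk sac cells 482, 1096 and 1866. The E12.5 cells gave 240, 1047 and 6010 CPM and the E14.5 cells 412, 1131 and 1802. The groups overlapped throughout, with pooled levels of 1320, 1088, 1193 and 1111 CPM.

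Its alternative form Cox4i2 (chr2:152754173-152765037, plus strand, GRCm38), known from lung and from cells at low oxygen, was at 12.99 CPM in the AGM, 9.06 in the yolk sac, 71.5 for E12.5 and 13.8 for E14.5. It was read in 27 of 48, 12 of 16, 8 of 16 and 10 of 16 cells. The E12.5 ratio of 2.37 was the largest among the 102 genes in that comparison, but E12.5 cell 11 held 46.2% of the reads, and without it the ratio was 1.63. E14.5 against E12.5 gave -2.29, and -1.54 without the same cell. Cox6b2, the form known from testis, was at 29.4, 8.20, 47.2 and 37.6 CPM, with a yolk sac ratio of -1.72, and was read in 36 of 48, 9, 10 and 11 of 16 cells. The muscle form Cox7a1 was near 0, at 1.92, 2.20, 0.892 and 1.85 CPM, with 81.6% of the yolk sac reads in 1 cell (cell 9); without that cell the yolk sac ratio was -1.03 in place of 0.13. Ndufa4l2 was read in 1 AGM cell and 1 yolk sac cell. Cox7a2l, a factor associated with complex IV, was at 230, 212.5, 338 and 302 CPM, with a ratio of 0.39 at E14.5.

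Complex V, the ATP synthase, had 15 nuclear subunits with median ratios of -0.17, -0.18 and -0.37 to the AGM. The 5 subunits of the catalytic head stood at 0.05, -0.27 and -0.05. The 10 of the stalk, the membrane part and the c-ring stood at -0.35, -0.15 and -0.41, with 2, 1 and 1 of 10 above 0. Apart from Atp5e, head transcripts ran from 1166 (Atp5c1) to 2471 bases (Atp5a1), and most of the 10 were shorter. How much of this contrast goes with length was not tested. Atp5b, the catalytic beta subunit (chr10:128083273-128090391, plus strand, GRCm38), had the highest level per kilobase of the nuclear genes, 1829 CPM in the AGM. Its cells gave a lowest value of 710, a median of 3523 and a highest of 5443 CPM in the AGM, 1458, 3385 and 5335 in the yolk sac, 332, 2796 and 3992 at E12.5 and 1717, 3328 and 4282 at E14.5. The groups overlapped, with the E12.5 cells lowest by median. Pooled levels were 3505, 3636, 2773 and 3385 CPM. Atp5a1, the alpha subunit, was also lowest at E12.5, at 1660, 1993, 1381 and 1999 CPM, and E14.5 stood 0.53 above E12.5.

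Atp5k, a small subunit at which ATP synthase dimers meet, was at 136 CPM in the AGM, 65.5 in the yolk sac, 93.1 for E12.5 and 81.8 for E14.5, with ratios of -1.04 in the yolk sac (-0.93 without yolk sac cell 1) and -0.73 at E14.5. The 3 genes for the proton-carrying c subunit encode the same mature protein. Atp5g1 was at 848, 756, 727 and 579 CPM and Atp5g3 at 885, 893, 782 and 736. Atp5g2 was at 163.7 CPM in the yolk sac, 195.7 for E12.5 and 152.3 for E14.5, and 87.4% of its words are shared with other genes, so its level is uncertain. All 3 were lowest at E14.5.

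The difference in the yolk sac went with transcript length. The 89 nuclear genes with a mean of at least 20 CPM had a median principal transcript of 908 bases, against 2497 over 6220 genes at the same level. Of the 36 genes with transcripts of up to 750 bases, 33 were lower in the yolk sac than in the AGM, with a median of -0.61. Other genes of that length had a median of -0.45, and 82.4% were lower. From 750 to 1500 bases the medians were -0.12 for the subunits and -0.04 for other genes, and above 1500 bases -0.01 and 0.06. Across the 89 genes, Spearman's rho between length and yolk sac ratio was 0.59, as a description of genes measured in the same libraries.

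At E14.5 against the AGM, the same short genes had a median of -0.35, with 32 of 36 below 0, beside -0.33 for other short transcripts. After the median of genes of like length was taken off each gene, the nuclear medians were -0.10 in the yolk sac, -0.10 for E12.5 and -0.07 for E14.5 against the AGM, and -0.02 between the livers. Over the nuclear genes of the pathway, length did not go with the difference in every comparison. At E12.5 against the AGM, the short subunit genes had a median of -0.12, with 29 of 36 below 0, beside 0.03 and 48.3% below 0 for other short genes. Between the livers, rho with length was 0.00 over the 89 nuclear genes. Their medians were -0.18 up to 750 bases, -0.16 from 750 to 1500 and -0.32 above 1500. Below 0 lay 32 of 36, 21 of 30 and 19 of 23. Other genes did differ by length there, with medians of -0.36, -0.20 and 0.05 in the same bins. Of them, 77.3%, 64.0% and 47.5% lay below 0. In the yolk sac, 1 gene remained past 2-fold after the correction, Cox6b2. The correction was chosen after the values were seen. What sets the share of short transcripts in a library was not tested.

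The same was seen cell by cell. In the yolk sac, 10 cells held between 0.166% and 0.450% of their reads in complex IV and 6 held between 0.751% and 0.926%, with none between. The highest E12.5 cells were cell 8 at 2.63% and cell 6 at 1.80%, beside medians of 0.647% in the AGM, 0.397% in the yolk sac, 0.536% for E12.5 and 0.547% for E14.5. Against the share of reads in 458 other genes with transcripts of up to 750 bases, Spearman's rho was 0.89 over 48 AGM cells, 0.99 over 16 yolk sac cells, 0.71 over 16 E12.5 cells and 0.82 over 16 E14.5 cells. Divided by that share, complex IV had medians of 0.132, 0.120, 0.106 and 0.132 in the 4 groups. Single cells ran from 0.073 to 0.1685 in the AGM, 0.108 to 0.139 in the yolk sac, 0.082 to 0.295 at E12.5 and 0.106 to 0.155 at E14.5. The highest E12.5 value was that of cell 8, and the second highest there was 0.1675.

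**Figure D4:**
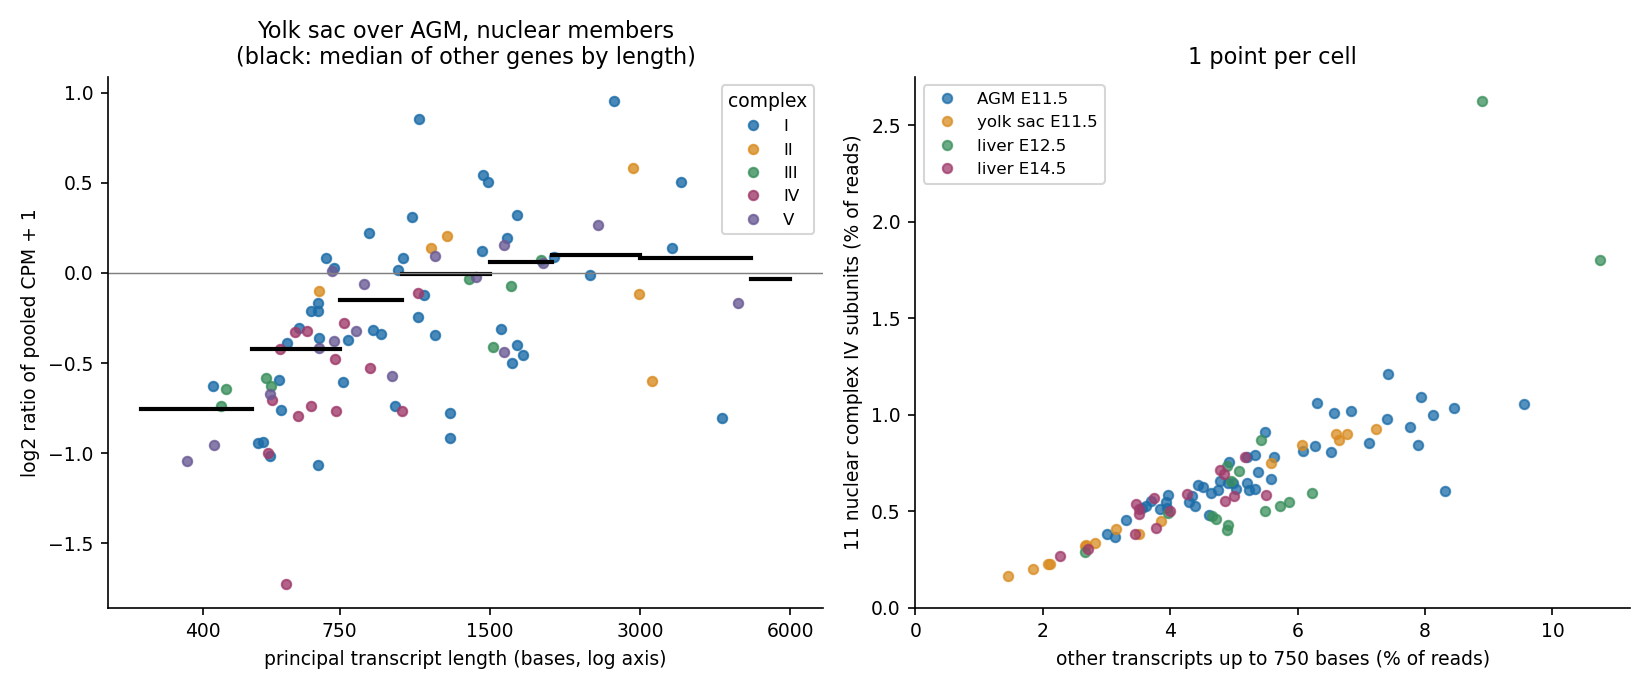
Left, log2 ratio of yolk sac to AGM of 89 nuclear genes against principal transcript length in bases (log axis), with black bars for the median of other genes of like length; right, percent of each cell's reads in complex IV against the percent in 458 other genes with transcripts of up to 750 bases. Short transcripts lie lowest on the left, and on the right the cells of each group rise along a line.

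Complexes moved together across cells to different degrees. Complex I and complex IV shares had Spearman's rho of 0.86 over the 48 AGM cells, and 0.96, 0.76 and 0.83 over the 16 cells of each other group. For complexes III and IV these were 0.57, 0.77, 0.71 and 0.34, and for complexes I and V 0.33, 0.42, 0.71 and 0.76. For complexes II and IV they were 0.02, -0.01, 0.39 and 0.38. These shares come from 1 library per cell and so have depth and transcript length in common.

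The 13 assembly factors, which build the complexes but are not part of them, were low and patchy. Per kilobase, their median was 31.8 CPM in the AGM, against 287 for complex I subunits and 726 for complex IV subunits. None was read in at least 90% of cells, whereas 74 of the 93 nuclear genes were and 42 were read in every cell. Per cell, 85 of 93 nuclear genes were read by median in the AGM, 85.5 in the yolk sac, 82 for E12.5 and 84.5 for E14.5; E12.5 cell 8, at 55, was lowest. With cells thinned to 690000 reads the medians were 85, 85.5, 82.5 and 85.5, after 5, 0, 2 and 2 shallower cells were left out. The median ratios of the assembly factors were -0.10, 0.11 and -0.18 to the AGM and -0.52 between the livers, with 5, 9, 6 and 2 of 13 above 0.

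Ndufaf5, which hydroxylates a complex I subunit (chr2:140170649-140203689, plus strand, GRCm38), was at 40.3 CPM in the AGM, 31.6 in the yolk sac, 10.1 for E12.5 and 50.5 for E14.5. It was read in 30 of 48, 8, 4 and 10 of 16 cells. The E12.5 ratio was -1.89, and -2.77 without E12.5 cell 4, and E14.5 stood 2.21 above E12.5, or 3.09 without the same cell. Ndufaf1, which acts on the membrane arm, was at 34.7, 51.0, 16.7 and 54.2 CPM and was read in 24 of 48, 10, 6 and 11 of 16 cells, with ratios of 0.54, -1.01 and 0.63. The E12.5 ratio was -0.87 when E12.5 cell 3 was left out. In both, as in Ndufs1, the E12.5 cells were lowest.

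Other factors stood highest at E12.5. Ndufaf6 was at 44.9 CPM in the AGM, 82.0 in the yolk sac, 102 for E12.5 and 45.9 for E14.5, with an E12.5 ratio of 1.16, or 0.94 without E12.5 cell 11. Atp5sl, which despite its name is a complex I assembly factor, was at 49.5, 49.2, 101 and 32.6 CPM, with an E12.5 ratio of 1.02, or 0.61 without E12.5 cell 3. Ndufaf4 was at 52.4, 74.8, 86.7 and 54.0 CPM. Atp5s, a factor associated with complex V and outside the naming rule, is named after its values were seen: it was at 16.4, 11.8, 50.02 and 29.4 CPM, an E12.5 ratio of 1.55, and was read in 7 of 16 E12.5 cells. Sdhaf1, a complex II factor (chr7:30321406-30323895, GRCm38), was at 19.7, 15.1, 30.4 and 10.4 CPM, with -1.47 between the livers, or -0.85 without E12.5 cell 7. It shares 69.0% of its words with an overlapping gene, so its reads cannot be told apart from those of that gene.

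**Figure D5:**
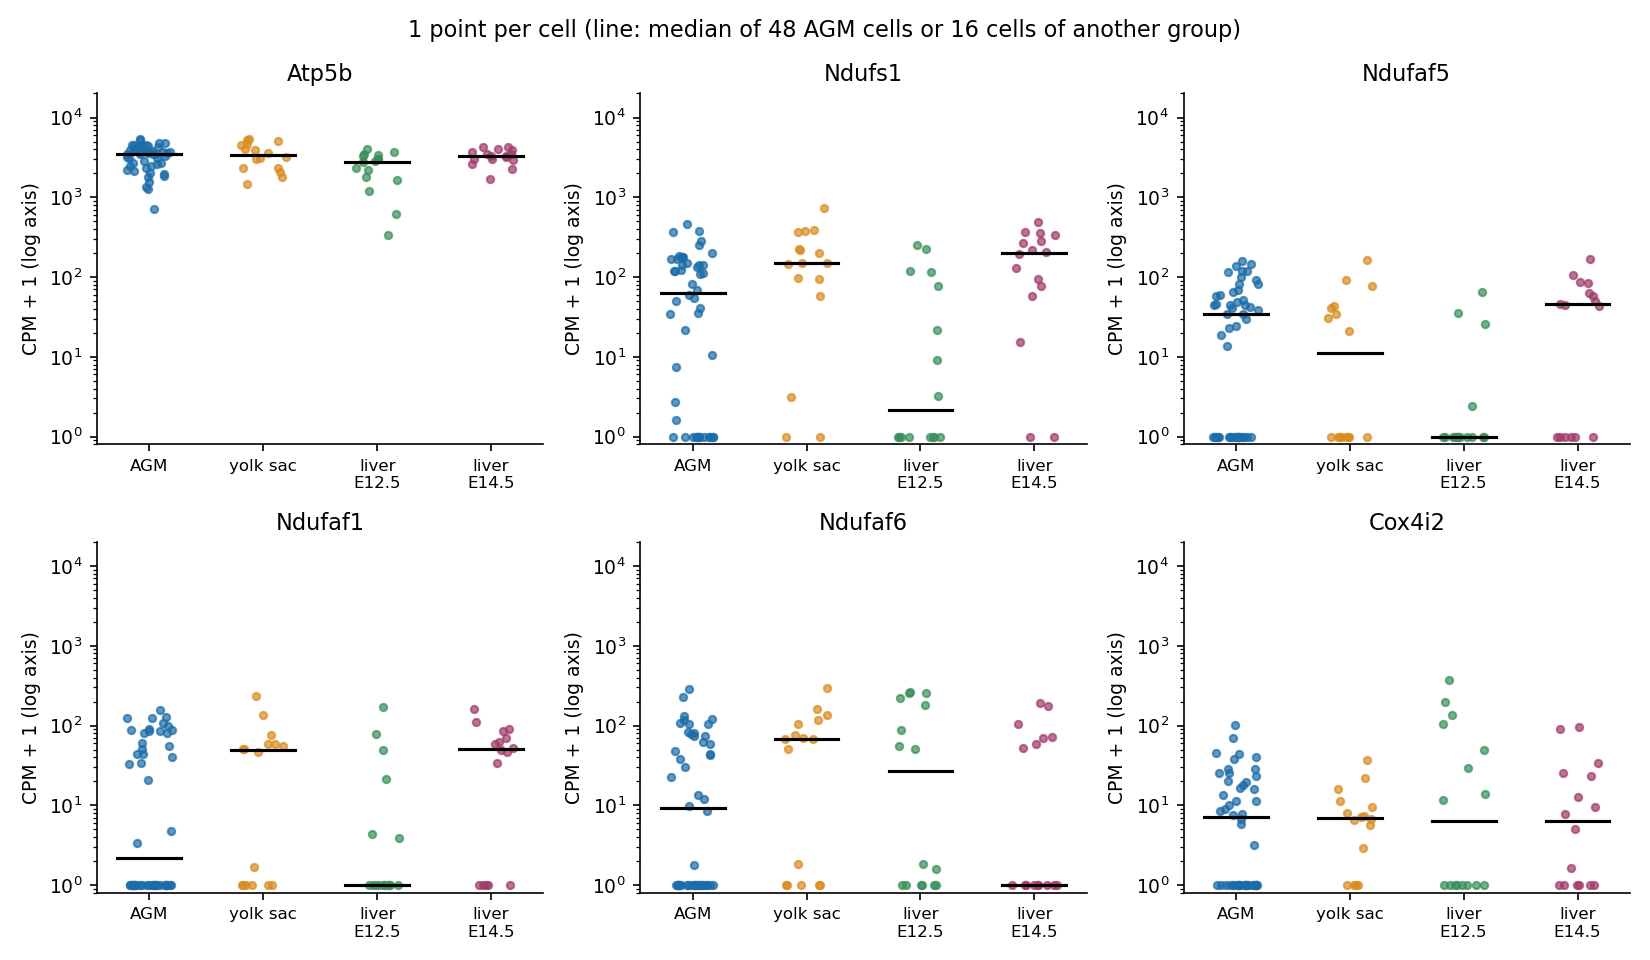
CPM plus 1 per cell (log axis) for Atp5b, Ndufs1, Ndufaf5, Ndufaf1, Ndufaf6 and Cox4i2, by group, with 1 point per cell and lines at the group medians. Atp5b was read in every cell, whereas the other 5 have cells at 0 in every group, among them 8 of 16 E12.5 cells for Ndufs1 and 12 of 16 for Ndufaf5.

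The promoters of the nuclear genes share letters that the choice of symbols did not use. RefSeq windows of 300 bases (GRCm38.p6, 250 before to 50 after the start) were matched for 76 of the 93 genes, giving 81 promoters. The NRF1 letters, GCGCA and GCGC with any base between them, on either strand, stood in 27.2% of them, against 4.6% of 32851 promoters of all genes and 9.09% of 14062 promoters of genes with at least 30 reads. The ETS letters CCGGAAG, read by GABP among others, stood in 25.9%, against 8.86% and 15.9%. The YY1 letters AAGATGGC stood in 12.3%, against 2.75% and 4.06%, and TATAAA in 8.64%, against 13.6% and 7.57%.

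Both the NRF1 and the ETS letters were found for 5 genes, Sdhd, Cox6a1, Atp5h, Atp5k and Sdhaf3, and neither for 39 of 76; Atp5b held none of the 4. A match is a string of letters and not a shown site. The stretches of 3 of the 5 are printed to show the arrangement, minus strand, 5' to 3', with both sets of letters in capitals: Sdhd at chr9:50603879-50603938, Cox6a1 at chr5:115348959-115349130 and Atp5h at chr11:115419941-115420070.

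Sdhd: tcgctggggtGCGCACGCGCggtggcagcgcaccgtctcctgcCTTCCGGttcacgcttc
Cox6a1: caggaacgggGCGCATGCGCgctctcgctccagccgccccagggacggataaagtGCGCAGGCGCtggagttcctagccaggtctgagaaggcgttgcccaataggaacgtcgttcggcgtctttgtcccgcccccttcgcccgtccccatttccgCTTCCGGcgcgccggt
Atp5h: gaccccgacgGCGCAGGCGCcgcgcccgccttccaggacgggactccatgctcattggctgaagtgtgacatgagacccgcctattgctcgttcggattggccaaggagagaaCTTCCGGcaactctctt

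The 3 genes belong to complexes II, IV and V and differed in pooled level between the groups in unlike ways. Sdhd was at 641, 738, 691 and 780 CPM in the AGM, yolk sac, E12.5 and E14.5, whereas Cox6a1 and Atp5h were lower than the AGM in each other group, the latter at 696, 522, 566 and 539 CPM. Their transcripts differ in length, at 1231 bases for Sdhd, 571 for Cox6a1 and 682 for Atp5h. With the median of genes of like length taken off, their yolk sac ratios to the AGM were 0.21, 0.01 and 0.02. In the same order they were -0.01, -0.02 and -0.30 at E12.5, and 0.27, -0.21 and -0.04 at E14.5. In Atp5h 47.9% of the words are shared with other genes.

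Other genes of the pathway were taken from lists chosen with the members. Of all genes, 38.2% (yolk sac), 40.5% (E12.5) and 39.7% (E14.5) lay above the AGM, and 40.8% lay above 0 between the livers. For genes with at least 100 CPM these shares were 55.7%, 47.8%, 46.7% and 46.5%. Of 17 citric acid cycle genes, which supply the electrons, 15 were above the AGM in the yolk sac, with a median of 0.24, 7 at E12.5 (-0.11) and 9 at E14.5 (0.07). Fumarase, Fh1, was at 184.9 CPM in the AGM, 375 in the yolk sac, 193.5 for E12.5 and 142.3 for E14.5, with a yolk sac ratio of 1.02 that was 0.73 without yolk sac cell 8. Idh3g, a subunit of the NADH-making isocitrate dehydrogenase, was at 430, 500, 705 and 693 CPM. Of these 17 genes, 1 was past 2-fold in the yolk sac, 2 for E12.5 and 0 for E14.5 against the AGM. Over all genes the shares past 2-fold were 29.6%, 41.7% and 40.5%, and over genes with at least 100 CPM 4.89%, 10.1% and 10%. Of the complex II subunits, which also act in this cycle, Sdha, Sdhb and Sdhd were above the AGM in the yolk sac and Sdhc was below it (-0.60).

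Of 9 electron carriers and entry enzymes, 7 lay above the AGM in the yolk sac (median 0.18), 2 at E12.5 (-0.19) and 6 at E14.5 (0.18). Cyc1 was at 568, 889, 518 and 761 CPM, with a yolk sac ratio of 0.65, and Cycs, the cytochrome c that links complexes III and IV, at 439, 636, 260 and 271 CPM, with ratios of 0.54, -0.75 and -0.69. Both were thus higher by pooled level in the yolk sac while the nuclear subunits of complexes III and IV had medians of -0.49 and -0.71 there. By cell median Cyc1 was at 580.5 CPM in the AGM and 887 in the yolk sac, but Cycs at 426 and 362. Yolk sac cell 11 held 21.15% of the Cycs reads of its group, and without it the yolk sac level was 539 CPM. Length went with the yolk sac ratios of the nuclear subunits, and how much of this contrast goes with length was not tested.

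Of 32 assembly factors outside the name stems, 14 were above the AGM in the yolk sac (median -0.03), 25 at E12.5 (0.44) and 11 at E14.5 (-0.20), and 6 of 32 were above 0 between the livers (-0.50). Foxred1, a complex I factor, was at 89.1, 69.8, 25.9 and 12.3 CPM, and was read in 25 of 48, 9, 3 and 4 of 16 cells. Without E12.5 cell 11, its E12.5 ratio was -3.66 in place of -1.75. Nubpl, which delivers iron-sulphur clusters to complex I, was at 31.3, 38.4, 70.5 and 9.13 CPM. Its ratio between the livers was -2.82, or -3.97 without E14.5 cell 6, and 3 of 16 E14.5 cells had reads. Past 2-fold were 4, 4, 8 and 7 of the 32 in the yolk sac, E12.5 and E14.5 against the AGM and between the livers. Over all genes the shares were 29.6%, 41.7%, 40.5% and 36.9%. Over genes with at least 100 CPM they were 4.89%, 10.1%, 10% and 7.97%.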

How the data were processed

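Whole-number read counts per gene were deposited by the authors for 96 cells. Per the submitters' processing notes, reads were handled with FastQC, Trimmomatic 0.36, STAR and HTSeq on mm10; the annotation release, the counting mode and the strand setting are not given in the sources used here. Without molecular identifiers, counts are reads and not molecules.

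Rows sharing a symbol (113 of 19949) were summed, giving 19836 genes, of which 15239 had at least 30 reads. Group totals of each gene, divided by all reads of the group, gave CPM, with exact 95% Poisson intervals; ratios used 1 CPM added. Python 3.11.15, numpy 2.4.6, pandas 2.3.3 and scipy 1.17.1 were used, and the code was tested on simulated data. Transcript lengths, positions and shared 50-base words came from GENCODE vM21 (GRCm38), and promoters from RefSeq (GRCm38.p6).

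The members and lists were chosen with earlier results of these data known. Genes were named as follows: all mitochondrial members, the isoform families, the highest nuclear member of each complex, and per comparison up to 5 nuclear members in each direction with the largest ratio. The last needed reads in 50% or more of cells where the level was higher, no more than 50% of those reads in 1 cell, and an equal direction when cells' log2 values were averaged. Lists gave 1 gene per direction by the same conditions. Further subunits were named as examples after their values were seen. The alternatives left out single cells, globin-rich cells, cells with few genes or AGM cells after the first 16, and changed the scaling, the added CPM, the minimum on reads, the depth and the length centring. A selection of the values that moved under an alternative, main medians and counts past 2-fold, is given at the end.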

Additional observations from a re-analysis of the deposited data

How the results depend on the processing

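Neither direction nor size of a main median was tested, so only movements are given, and the cause was not tested. The nuclear median of E12.5 against the AGM was 0.056 with CPM averaged over cells and -0.006 with AGM cells 1 to 16. For E14.5 against the AGM it was -0.17 without globin-rich cells, -0.17 with AGM cells 1 to 16 and -0.068 with length centring. For E14.5 against E12.5 it was -0.36 with the mean CPM, -0.11 without globin-rich cells and -0.019 with length centring, and for the yolk sac -0.10 with length centring. Genes past 2-fold at E14.5 against the AGM numbered 1 with the mean CPM, 1 with 10 CPM added and 1 with AGM cells 1 to 16. In the yolk sac they numbered 3 with median-of-ratios scaling and 1 with 10 CPM added. With cells of at least 2000 genes, with no minimum on reads and with scaling to reads of nuclear genes, the nuclear medians moved by less than the spread used and no count past 2-fold by more than 1.5 times. Length centring and the restriction to mitochondrial genes above 10 CPM were chosen after seeing the data.

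With single cells left out, the yolk sac nuclear median ran from -0.39 to -0.25, its mitochondrial median from -0.09 to 0.04 and its count past 2-fold from 2 to 11. At E12.5 against the AGM these ran from -0.15 to -0.011, from -0.22 to -0.02 and from 4 to 6, and at E14.5 from -0.30 to -0.18, from -0.42 to -0.32 and from 1 to 3. Between the livers they ran from -0.27 to -0.16, from -0.52 to -0.28 (without E12.5 cell 7) and from 6 to 9. Over all values and settings, 514 moved by more than the spread used and 853 did not. The size of that spread is not given here, and not all of the 514 are listed. A value without an entry here was therefore not necessarily stable. For genes read in few cells, the number of cells limits the precision. No paired analysis was possible because equal numbers in the labels stand for no common animal, and no result here comes from a test.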

Other observations

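The 78 genes of the mitochondrial ribosome, which translates the mitochondrially encoded subunits, lay close to the AGM. Their medians were 0.10 in the yolk sac, 0.09 for E12.5 and -0.14 for E14.5, with 48, 47 and 31 of 78 above 0. Of all genes, 38.2%, 40.5% and 39.7% lay above 0 in these comparisons, and 40.8% between the livers. Of genes with at least 100 CPM, 55.7%, 47.8%, 46.7% and 46.5% did. Mrpl44 was at 78.4 CPM in the AGM, 84.2 in the yolk sac, 212.9 for E12.5 and 162.2 for E14.5, with an E12.5 ratio of 1.43. Of 15 genes for the upkeep and transcription of mitochondrial DNA, 12 lay above the AGM at E12.5 (median 0.63), 7 in the yolk sac (-0.02) and 8 at E14.5 (0.05), and 3 of 15 were above 0 between the livers (-0.62). Ssbp1, the single-strand binding protein of mitochondrial DNA, was at 209.1 CPM in the AGM, 383 at E12.5 and 249 at E14.5, and Tfam, which packs that DNA and starts its transcription, at 85.2, 78.7, 132 and 116 CPM in the 4 groups. Mterf3 was at 65.8, 63.9, 68.7 and 30.1 CPM, so its lowest level, like that of mt-Nd2, stood at E14.5.

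Of 9 regulators of mitochondrial biogenesis, 6 were above the AGM in the yolk sac (median 0.14) and 3 at E12.5 and at E14.5 (-0.35 and -0.36). Nrf1, whose letters stood in the promoters, was at 46.03 CPM in the AGM, 110 in the yolk sac, 14.96 for E12.5 and 104 for E14.5, and was read in 22 of 48, 13, 6 and 7 of 16 cells. E12.5 cell 15 held 62.5% of the E12.5 reads. Gabpa, the DNA-binding part of GABP, was at 21.1 and 22.01 CPM in the AGM and yolk sac and at 1.58 and 0.292 CPM in the livers, and was read in 26 of 48, 9, 4 and 2 of 16 cells. Its partner Gabpb1 was at 55.0, 60.6, 50.9 and 88.4 CPM. Ppargc1a was read in 1 AGM cell, 3 yolk sac cells and no liver cell.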
